A study of Mus musculus with 24 samples.

Results

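The Egr and Nr4a genes encode transcription factors that neurons make quickly and transiently when they are active. The members were chosen by name, as the rows of the count table whose Ensembl gene ID maps to Egr1, Egr2, Egr3, Egr4, Nr4a1, Nr4a2 or Nr4a3, which gave 7 of 37991 genes (4 Egr and 3 Nr4a). All 7 passed the filter on low counts in both experiments. They were followed in RNA sequencing of mouse nucleus accumbens, a ventral striatal region of reward and motivation, in 24 libraries that form 8 groups of 3. The study compared how females and males respond to a subchronic variable stress, and what Cre-mediated loss of the DNA methyltransferase gene Dnmt3a adds in stressed mice.

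In the wild-type experiment, C57BL/6J mice without a virus were either stressed or controls, giving stressed females, control females, stressed males and control males. In the floxed experiment, every mouse was of genotype Dnmt3a2lox/2lox on C57BL/6J, was stressed and carried an adeno-associated virus, either AAV-CRE or, as its control, AAV-GFP, again in females and males. There is thus no unstressed floxed group, and the GFP groups are stressed mice. Each library pooled the mRNA of 4 mice per the labels' protocol, while the series' design text speaks of 3 mice per group. Here n counts libraries. The sources used here do not give the ages, the length of the stress, the time from the last stressor to dissection or the promoter that drives Cre. The protocol names nucleus accumbens and dorsal striatum in the same punch, and the virus reaches only part of the cells in such a punch.

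As background, Egr proteins bind GC-rich DNA through zinc fingers and are switched on by the ERK kinase cascade acting on the factors SRF and ELK, and by CREB. Egr2 and Egr3 are close relatives of Egr1, Egr4 is the most divergent member, and the NAB proteins are co-repressors that bind Egr1, Egr2 and Egr3 in mammals. Nr4a1 (Nur77), Nr4a2 (Nurr1) and Nr4a3 (Nor1) are orphan nuclear receptors, with no known physiological ligand needed for their activity, and respond to cAMP and calcium through CREB. In striatal spiny neurons Egr1, Egr3 and Nr4a1 follow dopamine and glutamate input, and Nr4a2 is best known from midbrain dopamine neurons and from deep-layer neurons of the cortex.

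Total counts ran from 7116123 to 12145551 per wild-type library and from 28132563 to 59829070 per floxed library, so the same CPM rests on fewer reads in wild-type mice. Dnmt3a had 155, 150.4 and 139.8 CPM in Cre females against 162, 169 and 154.5 CPM in GFP females (log2 -0.12, adjusted p = 0.829). It had 143, 137 and 138 CPM in Cre males against 182, 164 and 171 CPM in GFP males (log2 -0.30, adjusted p = 0.0149). CPM are edgeR's counts scaled to TMM-adjusted library size, and the gene-level Dnmt3a count also takes in exons outside the deleted part. The 12 spiny neuron markers, among them Drd1 and Drd2, summed to between 3032 and 8825 CPM in each library. The 12 markers of cortical and other excitatory neurons summed to 275 to 635 CPM in Cre males against 46.5 to 62.0 CPM in GFP males, and the 12 choroid plexus markers reached 3293 CPM in a Cre male library and 4711 CPM in a control male library. No marker of these lists was at 0 in every library of a group. Fewer cells of a type and less RNA per cell cannot be told apart in such tissue RNA.

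The promoter sequences are shown because the genes are read through short elements near their start sites that activity-dependent factors bind, and because several members had fold changes of the same sign in the comparisons that follow. RefSeq windows on GRCm38.p6, from 250 bases before to 50 bases after a transcript start, were found for 5 of the 7 members, Egr2, Egr4, Nr4a1, Nr4a2 and Nr4a3. The motif searched first was TGACG on both strands, the 5-base half-site of the cAMP response element that CREB binds. It occurred 2 times each in the windows of Egr2 and Egr4 and 4 times each in those of Nr4a1, Nr4a2 and Nr4a3. Of 32851 RefSeq windows of the same length, 20.8% held it, 5.01% held it at least 2 times and 1.03% held it at least 3 times. These shares are over all windows and were not matched for G and C or CpG content. TGACG itself holds a CpG, and CpG occurred from 19 times (Egr2) to 52 times (Nr4a2) in the members' windows. Whether the half-sites bear on the fold changes was not tested. The windows below belong to the 2 members with the largest negative stress fold changes, Egr2 and Nr4a1, and the 2 members called in the Cre comparisons, Egr4 and Nr4a2. They run 5′ to 3′ on the strand of the gene, at chr10:67537619-67537918 on the plus strand for Egr2 (of its 5 windows, the one with most matches, while 4 of the 5 held a match), chr15:101266596-101266895 on the plus strand for Nr4a1, chr6:85513540-85513839 on the minus strand for Egr4 and chr2:57123954-57124253 on the minus strand for Nr4a2. Capitals mark TGACG or its complement CGTCA and, in Egr2, also a CArG box, the element that SRF binds.
Egr2: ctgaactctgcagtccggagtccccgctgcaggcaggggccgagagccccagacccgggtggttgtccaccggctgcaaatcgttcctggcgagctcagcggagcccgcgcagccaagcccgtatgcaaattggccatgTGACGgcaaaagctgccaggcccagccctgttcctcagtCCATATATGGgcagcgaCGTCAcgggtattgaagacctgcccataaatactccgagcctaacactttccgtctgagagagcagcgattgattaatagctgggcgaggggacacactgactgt
Nr4a1: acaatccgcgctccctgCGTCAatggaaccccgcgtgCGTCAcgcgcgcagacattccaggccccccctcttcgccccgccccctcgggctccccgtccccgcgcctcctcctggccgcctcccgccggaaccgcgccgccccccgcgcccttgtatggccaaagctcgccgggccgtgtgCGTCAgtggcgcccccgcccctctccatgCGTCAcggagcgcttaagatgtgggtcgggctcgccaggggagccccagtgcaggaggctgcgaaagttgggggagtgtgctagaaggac
Egr4: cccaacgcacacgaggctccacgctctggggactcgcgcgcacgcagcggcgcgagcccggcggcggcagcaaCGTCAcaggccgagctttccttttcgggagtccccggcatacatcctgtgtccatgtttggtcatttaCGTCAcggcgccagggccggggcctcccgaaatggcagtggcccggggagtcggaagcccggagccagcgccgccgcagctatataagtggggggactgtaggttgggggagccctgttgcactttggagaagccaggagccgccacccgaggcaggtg
Nr4a2: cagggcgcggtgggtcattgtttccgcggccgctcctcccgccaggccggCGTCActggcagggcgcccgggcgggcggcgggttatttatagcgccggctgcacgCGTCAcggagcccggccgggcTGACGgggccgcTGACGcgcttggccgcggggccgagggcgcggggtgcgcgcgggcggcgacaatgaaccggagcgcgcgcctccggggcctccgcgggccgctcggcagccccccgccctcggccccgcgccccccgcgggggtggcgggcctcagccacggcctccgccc

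The full palindrome TGACGTCA was in none of the 5 windows and in 1.79% of all windows. The CArG box was in the Egr2 window alone among the 5, flanked by the half-sites, and in 1.63% of all windows. GCGNGGGCG, the site that Egr proteins bind, occurred 1 time each in the Nr4a1 and Nr4a2 windows and in 5.55% of all windows. AAAGGTCA, the site that Nr4a monomers bind, was in none of the 5 and in 1.51% of all windows. All these searches read both strands, and TGACG is contained in TGACGTCA. The Nr4a2 window was the richest in G and C, at 81.7%, against 60% to 72.3% in the other 4.

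**Figure D1:**
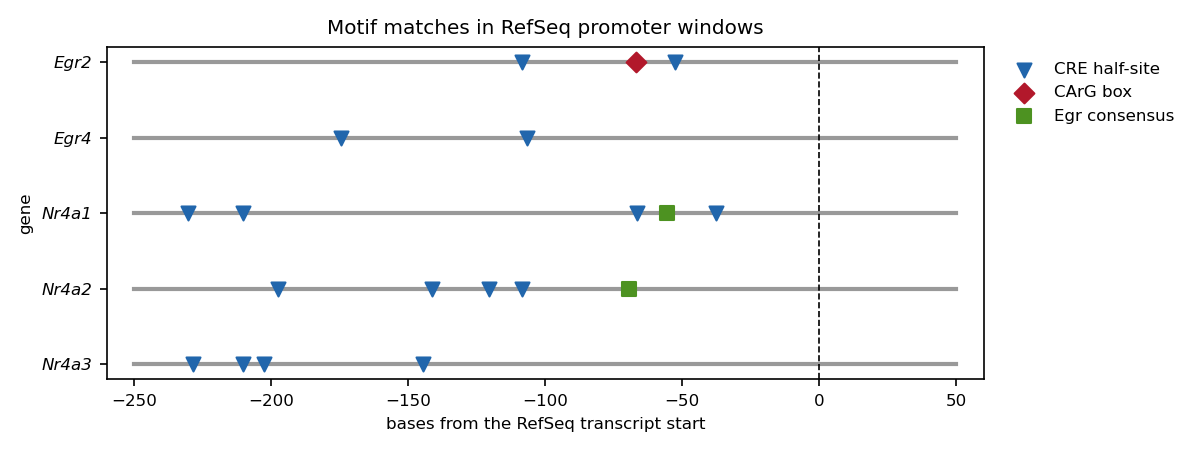
Positions of motif matches (markers) along 5 RefSeq promoter windows (grey lines), in bases from the transcript start, with the CRE half-site TGACG, the CArG box and the Egr site GCGNGGGCG. The Nr4a windows hold 4 half-sites each and the Egr2 and Egr4 windows 2 each, all before the start site.

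Per kilobase of exon, with the length taken over all annotated exons of a gene, the members kept a similar order of level in the 8 groups. Egr1 stood highest, at 42.5 ± 1.94 CPM per kb in stressed females against 75.9 ± 27.96 CPM per kb in control females and 26.2 ± 3.25 CPM per kb in Cre males against 27.1 ± 1.08 CPM per kb in GFP males (SD, n = 3). Nr4a1, Egr3, Egr4 and Nr4a3 followed in that order in all 8 groups. In control females they stood at 31.3 ± 14.4, 12.8 ± 7.26, 7.33 ± 0.978 and 7.05 ± 2.09 CPM per kb. The order of Egr4 and Nr4a3 rests on their exon lengths of 2148 and 5987 bases, since by CPM alone Nr4a3 stood above Egr4 in every group. Egr2 came next and Nr4a2 last in 7 of the 8 groups, while in Cre males Nr4a2 (2.62 ± 1.14 CPM per kb) stood above Egr2 (0.868 ± 0.142 CPM per kb). Egr1 and Nr4a1 were more than their SDs apart in every group. Egr4 and Nr4a3 lay within their SDs of each other in 5 groups, Nr4a3 and Egr2 in 3, Egr3 and Egr4 in both wild-type female groups, Nr4a1 and Egr3 in control females, and Nr4a3 and Nr4a2 in Cre males.

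**Figure D2:**
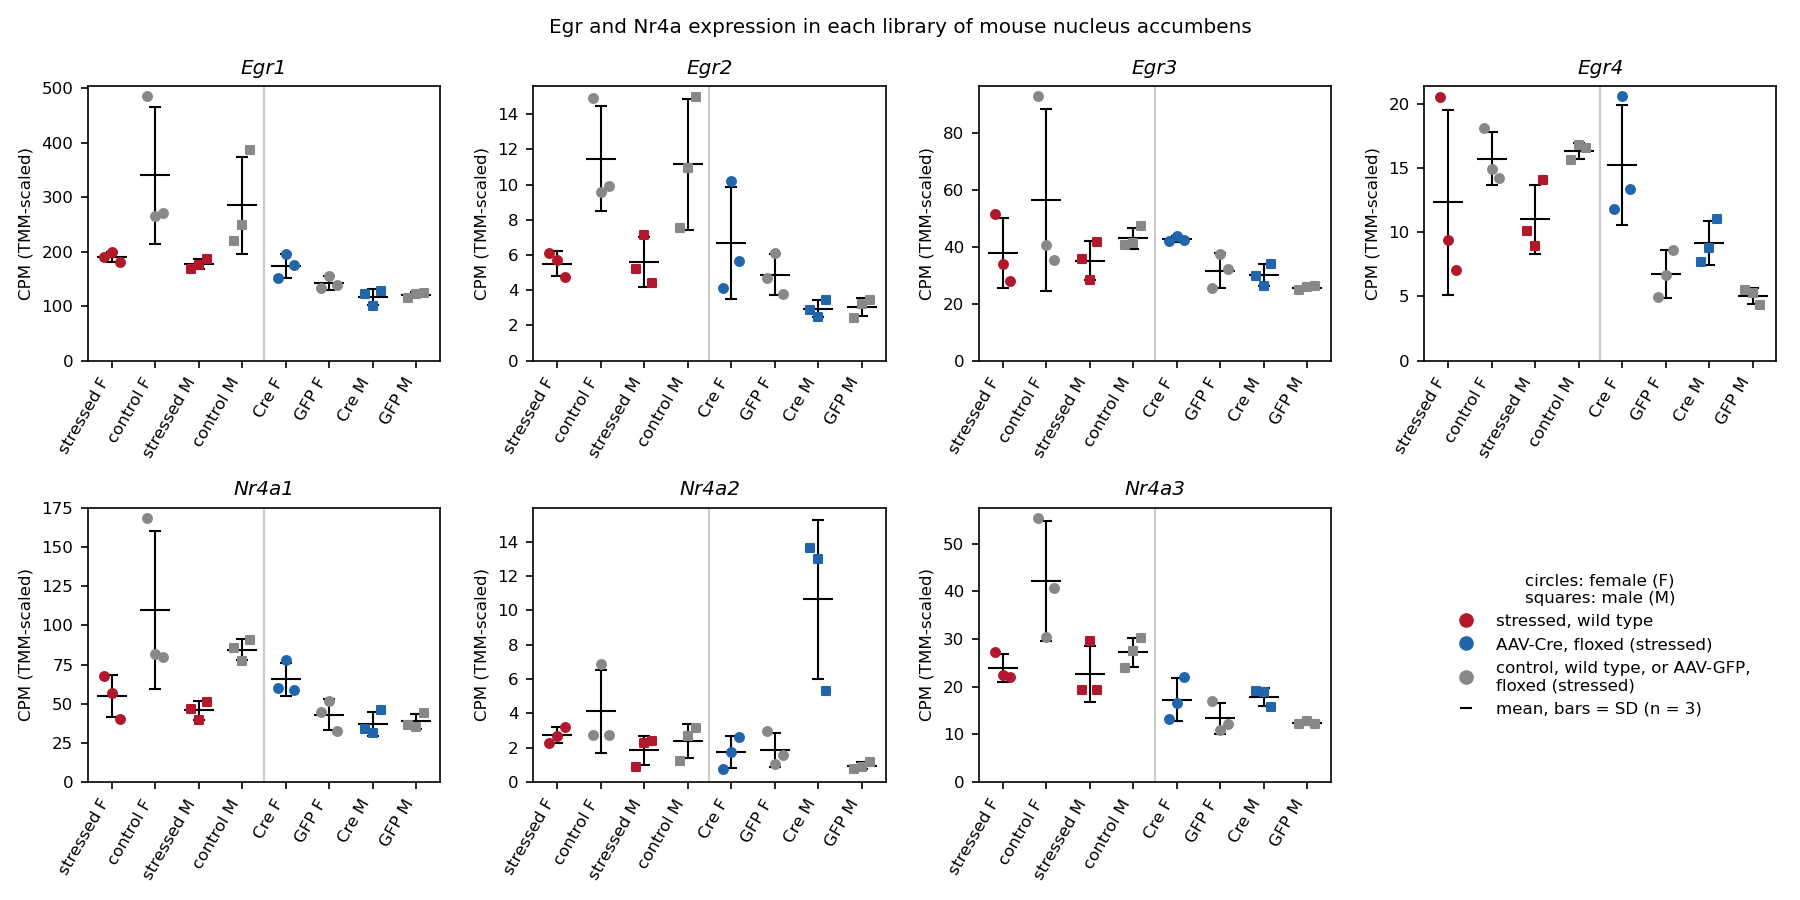
TMM-scaled CPM of each member in each of the 24 libraries (points), with mean and SD of the 3 libraries per group. Most members lie lower in stressed than in control libraries on the wild-type side, Egr4 lies higher in Cre than in GFP libraries of the same sex, and Nr4a2 stands out in Cre males.

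Stress was compared with control first in females, where all 7 members had a negative fold change, as did 51.3% of all genes, and none was called. Egr2, a zinc finger factor also needed for myelination and synaptic plasticity, had 6.09, 5.73 and 4.73 CPM in stressed females against 14.9, 9.57 and 9.94 CPM in control females (log2 -1.05, SE 0.28). Egr1, the most abundant member and a marker of recent neuronal activity, had 191, 199 and 182 CPM in stressed females against 485, 265 and 271 CPM in control females (log2 -0.84, SE 0.24). All stressed libraries lay below all control libraries for both genes, and control female library 1 was by far the highest for Egr1. Nr4a1, the receptor most often used as a readout of striatal activation, had 67.6, 56.6 and 40.5 CPM in stressed females against 168, 81.6 and 79.5 CPM in control females (log2 -1.0, SE 0.27). Nr4a3, its close relative, had 27.2, 22.4 and 22.1 CPM in stressed females against 55.3, 30.5 and 40.8 CPM in control females (log2 -0.82, SE 0.22). Here too the groups did not overlap and control library 1 stood highest.

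The other 3 members overlapped between stressed and control females. Egr3, which acts downstream of Egr1-type signals in striatal plasticity, had 51.6, 33.96 and 28.1 CPM in stressed females against 93.3, 40.8 and 35.3 CPM in control females (log2 -0.58). Egr4 had 20.6, 9.38 and 7.10 CPM in stressed females against 18.1, 14.9 and 14.2 CPM in control females (log2 -0.36), with stressed library 1 the highest of the 6. Nr4a2 had 2.30, 2.71 and 3.20 CPM in stressed females against 2.74, 6.89 and 2.74 CPM in control females (log2 -0.59), from 9 to 67 reads per library over the wild-type experiment, and control library 2 stood alone. Without that library its log2 fold change was 0.00.

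By edgeR's quasi-likelihood test with Benjamini-Hochberg adjustment over 15249 genes, 0 members passed an adjusted p of 0.05 in females, all with an adjusted p of 1, and 0% of all genes did. DESeq2 and limma-voom also called 0 members. At an unadjusted p below 0.05 there were 4 members, all lower, where 0.931% of all genes were lower by that rule, in the order Egr2, Nr4a1, Nr4a3 and Egr1 from the smallest p. The same 4 did not overlap between the groups, against 2.58% of all genes on the lower side. The median log2 fold change was -0.82 over the members and -0.01 over all genes. With no filter on low counts Egr1 was called (log2 -0.86, adjusted p = 0.0329), as were other genes of the whole table. Without control female library 1 the log2 fold changes were -0.82 for Egr2, -0.55 for Nr4a1, -0.58 for Nr4a3, -0.49 for Egr1 and -0.01 for Egr3. Without stressed female library 1 that of Egr4 was -0.93.

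Cortical markers moved beside these values in females. Their summed level was 84.4 to 122 CPM in stressed females against 118 to 222 CPM in control females, and 10 of the 11 measured had a negative fold change, with a median log2 of -1.09. Slc17a7, which loads glutamate into vesicles of cortical neurons, had 9.89, 21.7 and 26.6 CPM in stressed females against 41.1, 109 and 29.9 CPM in control females. Adding a score of the cortical markers to the fit, the female log2 fold changes were -1.02 for Egr2, -0.83 for Egr1, -1.23 for Nr4a1 and -0.90 for Nr4a3, while that of Nr4a2 turned to 0.28. The control library with the highest Slc17a7 was library 2, which also held the highest Nr4a2.

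In males, stress again went with negative fold changes of all 7 members, against 50.3% of all genes, and none was called. Egr2 had 5.20, 7.16 and 4.43 CPM in stressed males against 7.51, 10.97 and 14.98 CPM in control males (log2 -1.0, SE 0.27). Nr4a1 had 46.9, 39.4 and 51.4 CPM in stressed males against 85.2, 77.2 and 90.7 CPM in control males (log2 -0.88, SE 0.27). Egr1 had 168.5, 176 and 187 CPM in stressed males against 219.5, 249.5 and 387 CPM in control males (log2 -0.69, SE 0.24). For these genes every stressed library lay below every control library, and the controls spread more than the stressed libraries for Egr1 and Egr2. Egr4 had 10.1, 8.90 and 14.04 CPM in stressed males against 15.7, 16.8 and 16.6 CPM in control males (log2 -0.57, SE 0.31). Its groups did not overlap either, although its p before adjustment was not below 0.05.

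Nr4a3 had 19.3, 29.5 and 19.2 CPM in stressed males against 24, 27.6 and 30.1 CPM in control males (log2 -0.27), and stressed library 2 lay among the controls. Egr3 had 35.8, 28.2 and 41.7 CPM in stressed males against 40.7, 41.4 and 47.4 CPM in control males (log2 -0.29), with overlap in a single stressed library. Nr4a2 had 0.883, 2.28 and 2.38 CPM in stressed males against 1.25, 2.71 and 3.15 CPM in control males (log2 -0.38). Leaving out a library moved some of the male values by more than 1.5 times. Without control male library 3 the log2 of Egr1 was -0.40 and without stressed male library 2 that of Egr3 was -0.16. That of Nr4a3 was -0.16 without stressed male library 1 or 3, -0.17 without control male library 3 and -0.50 without stressed male library 2. That of Nr4a2 ran from -0.68 without control male library 1 to -0.04 without stressed male library 1. The adjusted p of all 7 was 1, and 0.00656% of all genes, a single gene, was called in males. DESeq2 and limma-voom called 0 members as well. At an unadjusted p below 0.05 there were 3 members, all lower, against 1.88% of all genes, and 4 members did not overlap, against 4.24% of all genes on the lower side. The members' median log2 was -0.57 and that of all genes -0.00.

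Beside the male values, choroid plexus markers summed to 264 to 401 CPM in stressed males against 187 to 4711 CPM in control males. With a choroid plexus score as a covariate the male log2 fold changes were -0.89 for Egr2, -0.96 for Nr4a1, -0.60 for Egr1 and -0.69 for Egr4, while that of Nr4a2 turned to 0.11. Cortical markers summed to 92.7 to 117 CPM in stressed males against 90.8 to 123 CPM in control males. Of the 12 spiny neuron markers, 11 had a negative fold change after stress in each sex, with a median log2 of -0.16 in each and 0 called. They summed to 5718 to 7341 CPM in stressed females against 6469 to 8825 CPM in control females, and to 5994 to 6800 CPM in stressed males against 6876 to 7463 CPM in control males, without overlap in males. The part of these markers in the members' values was not tested.

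Averaged over both sexes, Egr2, Nr4a1 and Egr1 had the strongest evidence among the members. Egr2 ranged from 4.43 to 7.16 CPM in 6 stressed libraries against 7.51 to 14.98 CPM in 6 control libraries (log2 -1.03, SE 0.20, adjusted p = 0.387), and ranked 6 of 15249 genes by p. Nr4a1 ranged from 39.4 to 67.6 CPM in stressed libraries against 77.2 to 168 CPM in control libraries (log2 -0.94, SE 0.19, adjusted p = 0.417). Egr1 ranged from 168.5 to 199 CPM in stressed libraries against 219.5 to 485 CPM in control libraries (log2 -0.76, SE 0.17, adjusted p = 0.654). All 6 stressed libraries lay below all 6 control libraries for each of these 3 genes, as for 0.164% of all genes on the lower side, but none passed edgeR's adjusted threshold, as 0.0131% of all genes did. At an unadjusted p below 0.05 there were 4 members, the fourth being Nr4a3 (log2 -0.54, adjusted p = 1), all lower, against 1.86% of all genes. The remaining members had log2 -0.43 (Egr3), -0.46 (Egr4) and -0.49 (Nr4a2). Without control female library 1 that of Egr3 was -0.14, without stressed female library 1 that of Egr4 was -0.75, and that of Nr4a2 was -0.19 without control female library 2 and -0.31 without stressed male library 1.

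The call depended on the tool for these 3 genes. DESeq2 called Egr1 (adjusted p = 0.0206), Egr2 (adjusted p = 0.00435) and Nr4a1 (adjusted p = 0.00331), and edgeR with no filter on low counts called the same 3, whereas limma-voom called 0 members. DESeq2 and the fit with no filter also called more genes over the whole table than edgeR with the filter, as counted in the section on processing. The stress effect was not shown to differ between the sexes: in the interaction test the members' unadjusted p ran from 0.102 to 0.897, 0 passed an unadjusted p of 0.05, against 1.19% of all genes, and edgeR, DESeq2 and limma-voom each called 0 members, where edgeR called 0% of all genes.

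**Figure D3:**
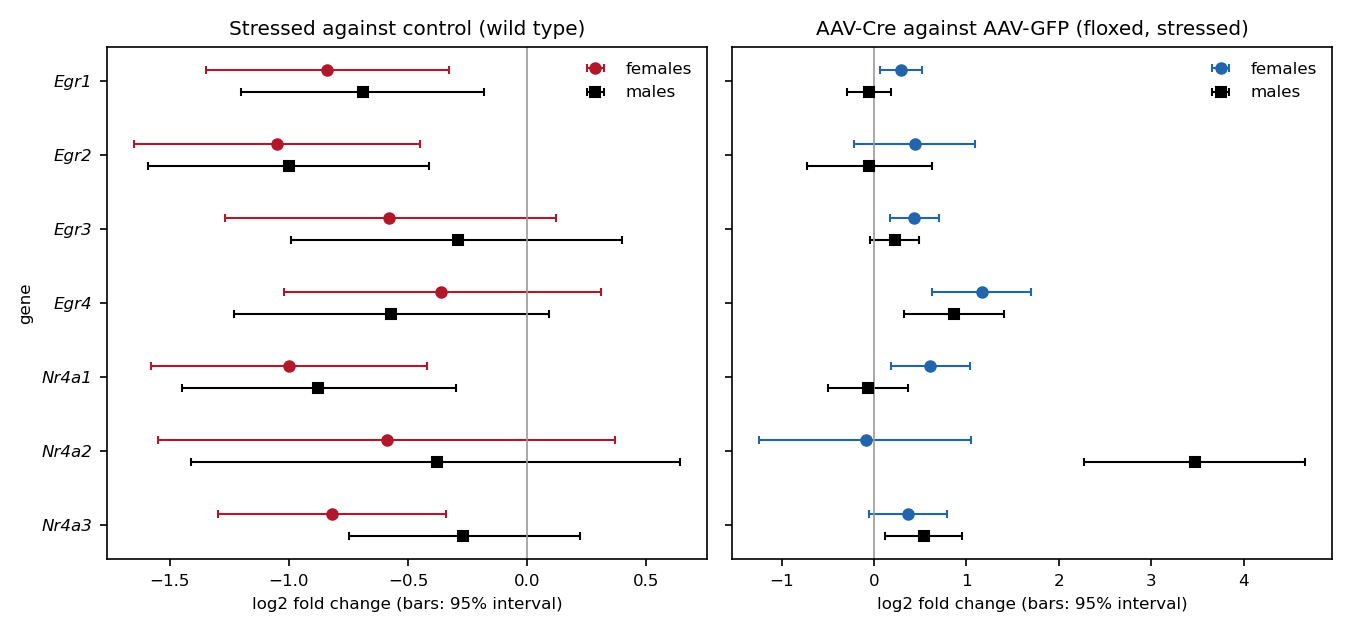
log2 fold changes of each member with 95% intervals, stressed against control at the left and Cre against GFP at the right, for females (circles) and males (squares). Stress values are all below 0, with a log2 of -1.05 in females and -1.0 in males for Egr2. Egr4 lies above 0 with Cre in both sexes (1.17 and 0.87), and Nr4a2 in males stands apart at 3.47.

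In the floxed experiment, Cre was compared with GFP among stressed mice, and Egr4 and Egr3 were higher in every Cre library than in every GFP library of the same sex. Of these, Egr4 was called over both sexes together. Egr4, a zinc finger factor of uncertain targets in the striatum, had 11.8, 20.6 and 13.4 CPM in Cre females against 4.95, 6.70 and 8.64 CPM in GFP females (log2 1.17, SE 0.24, adjusted p = 0.448). It had 7.67, 8.78 and 11.1 CPM in Cre males against 5.51, 5.25 and 4.31 CPM in GFP males (log2 0.87, SE 0.25, adjusted p = 0.067). Neither sex alone passed. Averaged over the sexes Egr4 rose, by a log2 of 1.02 (95% interval 0.64 to 1.40, adjusted p = 0.0232 by edgeR's quasi-likelihood test over 17597 genes), and it was the single member called there, where 1.42% of all genes were called. Over both sexes it ranged from 7.67 to 20.6 CPM in 6 Cre libraries against 4.31 to 8.64 CPM in 6 GFP libraries.

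The averaged Egr4 call was near its threshold. It was lost without Cre female library 3 (adjusted p = 0.0545), GFP female library 1 (0.0595) or 2 (0.0684) and GFP male library 2 (0.0842) or 3 (0.075), with a log2 of 0.88 to 1.13 over all 12 fits that leave out a library. Adding the cortical score to the fit, its log2 was 1.55 (adjusted p = 0.24), and with a choroid plexus score 1.05 (adjusted p = 0.0667). No gene of all those tested was called in the averaged comparison with the cortical score, so that loss is not particular to Egr4. Cortical markers summed to 49.0 to 96.3 CPM in Cre females against 49.5 to 77.6 CPM in GFP females, with overlap. The part of cortical markers in the Egr4 difference was not tested.

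In females, Egr3 had 42.01, 43.8 and 42.6 CPM with Cre against 25.4, 37.4 and 32.4 CPM with GFP (log2 0.43, SE 0.12, adjusted p = 0.621). Nr4a1 had 60.3, 77.6 and 58.9 CPM in Cre females against 44.8, 51.9 and 32.3 CPM in GFP females (log2 0.61, SE 0.19, adjusted p = 0.674). Neither overlapped between the groups, and the Cre libraries of Egr3 lay within 2 CPM of each other. Egr1 had 151.5, 196 and 175 CPM in Cre females against 133, 156 and 138 CPM in GFP females (log2 0.29, adjusted p = 0.783), overlapping in a single library. Egr2 (4.12, 10.2 and 5.63 CPM in Cre females against 4.72, 6.14 and 3.80 CPM in GFP females) and Nr4a3 (13.3, 16.6 and 22.1 CPM in Cre females against 17.02, 10.95 and 12.2 CPM in GFP females) had log2 fold changes of 0.44 and 0.37 and overlapped. Nr4a2 had 0.784, 1.78 and 2.65 CPM in Cre females against 2.98, 1.03 and 1.56 CPM in GFP females (log2 -0.09), and its sign turned when Cre or GFP library 1 was left out (log2 0.26 and 0.42).

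With edgeR, 0 members passed the adjusted threshold in Cre females and 0% of all genes did. limma-voom called 0 members and DESeq2 called Egr4 (adjusted p = 0.00483). Over the whole table, too, DESeq2 called more genes than edgeR there, as counted in the section on processing. At an unadjusted p below 0.05 there were 4 members, Egr4, Egr3, Nr4a1 and Egr1, all higher, against 3.89% of all genes on that side. The 3 members without overlap compare with 6.50% of all genes on the higher side. The median log2 was 0.43 over the members and 0.00 over all genes.

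In males, Nr4a2 rose and the other members did not pass in edgeR's fit of all groups. Nr4a2, a receptor of dopamine and deep cortical neurons, had 13.6, 13 and 5.33 CPM in Cre males against 0.782, 0.909 and 1.17 CPM in GFP males (log2 3.47, SE 0.54, 95% interval 2.27 to 4.66, adjusted p = 0.0108 by edgeR's quasi-likelihood test). Every Cre male library lay above every other library of the floxed experiment, with library 3 lower than the other 2. Nr4a2 was the single member called in that fit, where 4.96% of all genes were called. DESeq2 and edgeR with only the 2 groups compared each called more members, as counted in the section on processing. DESeq2 also called more genes over the whole table. Nr4a3 had 19.1, 18.9 and 15.7 CPM in Cre males against 12.3, 12.7 and 12.2 CPM in GFP males (log2 0.54, SE 0.19, adjusted p = 0.121). Egr3 had 29.97, 26.4 and 33.9 CPM in Cre males against 24.7, 25.98 and 26.2 CPM in GFP males (log2 0.23, adjusted p = 0.271). Like Egr4 and Nr4a2, both were without overlap between the groups, and 14.7% of all genes were so on the higher side.

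Egr1, Egr2 and Nr4a1 differed little between Cre and GFP males. Egr1 had 123, 101 and 128 CPM in Cre males against 116, 123 and 125 CPM in GFP males (log2 -0.05, 95% interval -0.29 to 0.18). Nr4a1 had 34.1, 31.6 and 45.8 CPM in Cre males against 36.4, 35.4 and 44.4 CPM in GFP males (log2 -0.06, 95% interval -0.50 to 0.37). Egr2 had 2.90, 2.49 and 3.46 CPM in Cre males against 2.45, 3.23 and 3.44 CPM in GFP males (log2 -0.05, 95% interval -0.73 to 0.63). The groups overlapped for each, and the intervals are widest for Egr2, the lowest of the 3. At an unadjusted p below 0.05 there were 3 members, Nr4a2, Egr4 and Nr4a3, all higher, against 13.9% of all genes on that side, and the members' median log2 was 0.23 against 0.00 over all genes.

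The Nr4a2 difference went with cortical markers. In Cre males 11 of the 12 cortical markers were called, all higher, with a median log2 of 4.10, and Slc17a7 had 428, 408.5 and 168 CPM in Cre males against 1.29, 2.76 and 15.3 CPM in GFP males. Cre male library 3 was the lowest of the 3 for both Slc17a7 and Nr4a2. Spiny neuron markers summed to 3032 to 5981 CPM in Cre males against 5933 to 6385 CPM in GFP males, and choroid plexus markers to 236 to 3293 CPM in Cre males against 179 to 214 CPM in GFP males. Adding the cortical score to the fit, the male log2 of Nr4a2 was 0.41 (adjusted p = 1), and with the choroid plexus score 2.99 (adjusted p = 0.113). No gene of all those tested was called in Cre males with the cortical score, so the loss of the call is not particular to Nr4a2. Since no Cre male library had a cortical sum within the range of the GFP males, Cre and cortical marker level cannot be told apart in males. The call was also lost without GFP male library 2 (log2 3.43, adjusted p = 0.0584), with an adjusted p of 0.0026 to 0.0584 over all fits that leave out a library.

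Nr4a2 varied with the cortical markers also where Cre males were left out. Over the other 9 floxed libraries, log2 CPM of Nr4a2 and of the cortical sum had a Pearson r of 0.90 (exact permutation p = 0.00232, adjusted p = 0.0325) and a Spearman rho of 0.90 (exact permutation p = 0.00203, adjusted p = 0.0284), and r was 0.80 without the 2 libraries farthest from the median cortical sum. Over the 12 wild-type libraries r was 0.65 (permutation p = 0.0281, adjusted p = 0.131) and rho 0.64 (permutation p = 0.0288, adjusted p = 0.201), and r was 0.37 without the 2 farthest, so there the relation rests on those libraries. These are 2 of 14 relations computed, 1 for each member and experiment, two-sided and adjusted by Benjamini-Hochberg, and the libraries come from several groups of unlike treatment. The relations were added after the data were seen. The permutations shuffled libraries across groups, so their p-values do not set group differences apart. Of the other 12 relations none had an adjusted p below 0.05; the next by r was Nr4a3 in the 9 floxed libraries, with an r of 0.83 (exact permutation p = 0.0183, adjusted p = 0.128), a rho of 0.43 (exact permutation p = 0.25, adjusted p = 0.5) and an r of 0.20 without the 2 farthest.

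**Figure D4:**
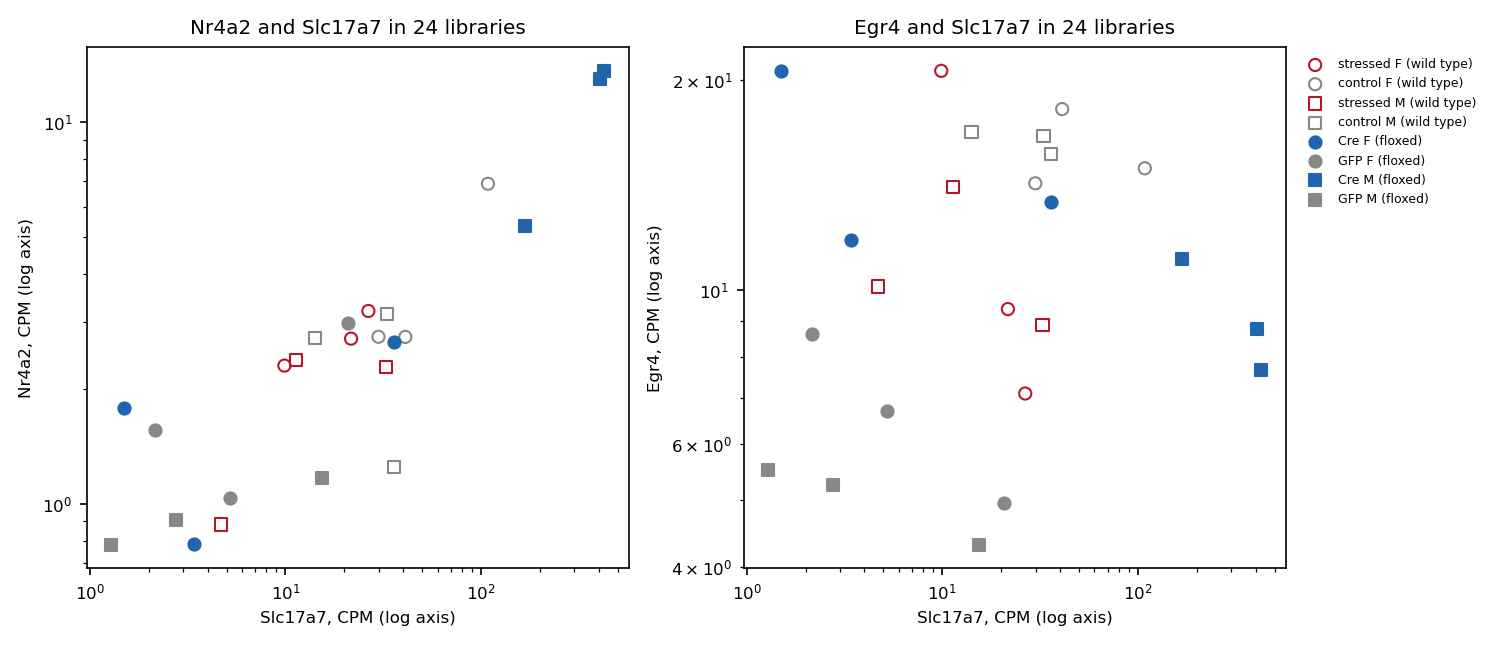
CPM of Nr4a2 (left) and Egr4 (right) against CPM of the cortical neuron marker Slc17a7 in each of the 24 libraries, on log axes, with wild-type libraries as open and floxed libraries as filled symbols. Cre males (blue squares) lie at 168 to 428 CPM of Slc17a7 and 5.33 to 13.6 CPM of Nr4a2, above all other floxed libraries in both, whereas their Egr4 lies within the range of the other libraries.

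Averaged over the sexes, the remaining members did not pass in the Cre comparison. Nr4a2 had a log2 of 1.69 (adjusted p = 0.0578), Egr3 of 0.33 (adjusted p = 0.0913) and Nr4a3 of 0.45 (adjusted p = 0.142), while Nr4a1, Egr2 and Egr1 lay between 0.12 and 0.27. DESeq2 called 4 members there, Egr4, Nr4a2, Egr3 and Nr4a3. The Cre effect, female minus male, had a log2 of -3.56 for Nr4a2 (SE 0.74, adjusted p = 0.0829), 0.67 for Nr4a1 (adjusted p = 0.252) and 0.34 for Egr1 (adjusted p = 0.269). These 3 had an unadjusted p below 0.05, against 17.5% of all genes, and 0 members passed edgeR's adjusted threshold, against 0.0114% of all genes. DESeq2 called Nr4a2 in that test (adjusted p = 9.26e-05) and limma-voom called 0 members. In this test and in the averaged comparison DESeq2 also called more genes over the whole table than edgeR, as counted in the section on processing.

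Sex was compared over both arms of each experiment. In floxed mice, all stressed, Egr1 stood at 133 to 196 CPM in 6 female libraries against 101 to 128 CPM in 6 male libraries (log2 0.40, SE 0.08, adjusted p = 0.143, rank 26 of 17597 by p). Egr2 stood at 3.80 to 10.2 CPM in females against 2.45 to 3.46 CPM in males (log2 0.93, SE 0.22, adjusted p = 0.288). For both, every female library lay above every male library, as for 0.148% of all genes on the higher side. Egr3 (log2 0.41, adjusted p = 0.235), Nr4a1 (log2 0.48, adjusted p = 0.456) and Egr4 (log2 0.58, adjusted p = 0.463) had higher female means with overlap. Nr4a2 went the other way (log2 -0.83, adjusted p = 0.737), with 0.784 to 2.98 CPM in females against 0.782 to 13.6 CPM in males, where the high values are the Cre males. Nr4a3 had a similar mean in both, at 15.4 ± 4.09 CPM in females against 15.2 ± 3.27 CPM in males (SD, n = 6).

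With edgeR 0 members were called for sex in floxed mice, where 0.0682% of all genes were. At an unadjusted p below 0.05 there were 5 members higher in females, against 2.91% of all genes, and Nr4a2 was lower, against 3.77%. DESeq2 called 4, Egr1 (adjusted p = 0.000362), Egr3 (adjusted p = 0.00404), Egr2 (adjusted p = 0.0113) and Nr4a1 (adjusted p = 0.0468), and limma-voom 0. More genes of the whole table were also called by DESeq2 than by edgeR, as counted in the section on processing. Cortical markers had a median log2 of -1.49 in this comparison, and with the cortical score as a covariate Nr4a2 turned to a log2 of 0.29. All 5 endothelial markers were higher in females at an unadjusted p below 0.05 (0 called, median log2 0.26), with a sum of 169 to 204 CPM in females against 138 to 162 CPM in males. All 11 choroid plexus markers tested had negative fold changes (median log2 -0.98), and all 12 spiny neuron markers positive ones (median log2 0.15). The part of these markers in the members' values was not tested. In wild-type mice all 7 fold changes were positive, as were 49.5% over all genes, but with 1 library left out those of Egr2 (log2 -0.12 to 0.14), Egr4 (log2 -0.23 to 0.19) and Egr3 (log2 -0.05 to 0.36) took both signs. In that comparison 0 members were called by edgeR, DESeq2 or limma-voom, against 0.0393% of all genes by edgeR. A single member, Nr4a3, had an unadjusted p below 0.05, against 3.33% of all genes on the higher side. Its levels were 22.1 to 55.3 CPM in 6 female libraries against 19.2 to 30.1 CPM in 6 male libraries, an overlapping range.

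The other genes of the pathway were read from lists of named genes. Of 17 other immediate early genes, 16 lay below 0 on the log2 scale in stressed females (median log2 -0.46, 0 called, 9 lower at an unadjusted p below 0.05) and 17 in stressed males (median log2 -0.38, 1 called, 7 lower at an unadjusted p below 0.05). Over all genes, 51.3% lay below 0 in females and 50.3% in males. Lower at an unadjusted p below 0.05 were 0.931% and 1.88%. The immediate early gene called in males was Fos, the AP-1 subunit (log2 -1.71, adjusted p = 0.022), the single gene called there. Leaving out 1 of the 12 libraries kept its log2 between -1.90 and -1.54, but ended the call in 6 fits, those without any one of the stressed male libraries, control male library 2 or 3, or control female library 2 (adjusted p 0.0632 to 0.323). It was also lost with limma-voom (adjusted p = 0.0529), the cortical score (0.0569), the choroid plexus score (0.0652) and only the 2 groups compared (0.0776). In stressed females Npas4, an activity-dependent factor of synapse formation, had log2 -1.13 (adjusted p = 0.316) and Arc, which removes AMPA receptors from synapses, log2 -1.03 (adjusted p = 1). With stress averaged over the sexes, all 17 lay below 0 (median log2 -0.48). There edgeR's quasi-likelihood test called 2, Fos (log2 -1.47, adjusted p = 0.00234) and Npas4 (adjusted p = 0.0156), both lower. They ranked 1 and 2 of 15249 genes by p and were the 2 genes called there. Fits that leave out a library called 1 to 3 genes. With Cre, all 17 had positive fold changes in females (median log2 0.38, 0 called, 6 higher at an unadjusted p below 0.05) and 13 in males (median log2 0.30, 3 called). Those called were Jun (log2 0.98, adjusted p = 0.00236), Bdnf, a neurotrophin gene that cortical neurons express (log2 2.83, adjusted p = 0.00272), and Junb (log2 0.80, adjusted p = 0.0494). Of all genes 4.96% were called there. Positive fold changes with Cre were found for 8809 of 17597 genes in females and 8955 in males. In females 3.89% of all genes were higher at an unadjusted p below 0.05. With the cortical score as a covariate none of these 3 immediate early genes was called in Cre males, each with an adjusted p of 1, at log2 1.04 for Jun, 1.98 for Bdnf and 1.66 for Junb. No gene of all those tested was called in that fit, so the loss is not particular to them. The Junb call was also lost in 10 of the 12 fits that leave out a library, all but those without Cre female library 2 or GFP female library 2 (adjusted p 0.0532 to 0.158). The Jun and Bdnf calls were kept in all 12 of these fits and with the choroid plexus score (adjusted p = 0.0215 for each). That score ended the Junb call (adjusted p = 0.151). With Cre averaged over the sexes edgeR called 4 of the 17, Jun, Junb, Bdnf and Gadd45b, all higher, against 1.42% of all genes. With the cortical score no gene of all those tested was called in that averaged comparison either.

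Among the 5 phosphatases that oppose ERK, 4 had a negative fold change after stress in each sex, and 0 were called. Negative fold changes were found for 51.3% of all genes in females and 50.3% in males. Dusp1, which dephosphorylates MAP kinases and is itself induced by activity, had log2 -0.64 in stressed females (adjusted p = 1) and -0.60 in stressed males (adjusted p = 1), and Dusp6, a cytoplasmic ERK phosphatase, had -0.31 in stressed females and -0.36 in stressed males. With Cre, Dusp6 rose in males (log2 0.44, adjusted p = 0.0461), where 4.96% of all genes were called. Ptpn5, the striatum-enriched phosphatase STEP, had log2 -0.41 in Cre males (adjusted p = 0.0867). Of the 14 upstream kinases 0 were called after stress in either sex and 1 in Cre males, where Rps6ka5 (MSK1), which phosphorylates CREB and histone H3, fell by 0.44 on the log2 scale (adjusted p = 0.00786). With the cortical score neither Dusp6 (log2 0.36) nor Rps6ka5 (log2 -0.27) was called, both with an adjusted p of 1. No gene of all those tested was called in Cre males with that score, so the loss is not particular to these genes. The choroid plexus score also took away both calls (adjusted p = 0.156 for Dusp6 and 0.0972 for Rps6ka5). Leaving out a library ended the Dusp6 call in 8 of 12 fits, all but those without Cre female library 1 or 2, GFP female library 2 or Cre male library 3 (adjusted p 0.0539 to 0.143), and the Rps6ka5 call in 0. Of the 17 upstream transcription factors 0 were called in any of the 4 comparisons within a sex. Mef2c came closest in Cre males (log2 0.53, adjusted p = 0.0514), and Srf had log2 0.18 in Cre females (adjusted p = 0.838). Of the 5 partners, Nab1, Nab2 and the RXR receptors that pair with Nr4a1 and Nr4a2, 0 were called. Nab2, itself an Egr target, had log2 0.35 in Cre females (adjusted p = 0.703), and Rxrg had log2 -0.41 in stressed males (adjusted p = 1).

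The members' profile over the 24 libraries was taken as the mean of their log2 CPM, each centred on the mean of the 12 libraries of its experiment. It was highest in control female library 1, at 0.86, and lowest in stressed male library 1, at -0.58. In floxed mice it was highest in Cre female library 2, at 0.61, and lowest in GFP male library 1, at -0.56. Among 10214 other genes whose log2 CPM averaged 3 or more in both experiments, the root mean square (RMS) difference from this profile had a median of 0.413, and a flat profile gave 0.377. The nearest 8 genes were Sik1 (0.223), a salt-inducible kinase in the CREB pathway, Dusp6 (0.250), Dusp14 (0.256), Zfp703 (0.258), Jun (0.259), Mex3b (0.263), Bcl6 (0.265) and Midn (0.267). With Nr4a2 left out of the profile, an alternative chosen after seeing the data, the nearest were Dusp1 (0.187), Sik1 (0.202), Fosb (0.209), Arl4d (0.228), Dusp14 (0.235), Junb (0.257), Vgf (0.258) and Sh3bp1 (0.259), and 2 of the 8 were shared. The values are centred but not scaled, so the measure takes in the size of the differences and the noise as well as their shape, and the libraries share the groups' treatments.

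Each member was also set against the mean of the other 6. Nr4a3 (RMS 0.268) and Egr1 (0.275) lay closest, each ranking 7 among the candidate genes, followed by Egr3 (0.309, rank 22), Nr4a1 (0.353, rank 686), Egr4 (0.420, rank 5770) and Egr2 (0.446, rank 7385). Egr4 and Egr2 thus ranked in the farther part of the 10214 candidate genes. The means used for these 6 members take in Nr4a2, and the members were not set against a mean without it. Nr4a2 itself lay farthest, with an RMS of 1.13 and a rank of 10212. Its centred log2 CPM was 2.60, 2.53 and 1.25 in Cre male libraries 1, 2 and 3, where the highest value of another member was 0.44. It was 1.43 in control female library 2, where the other members ran from -0.01 to 0.30. Egr2 and Nr4a2 did not reach the level asked of the candidate genes, so they are ranked here among genes of higher mean level.

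**Figure D5:**
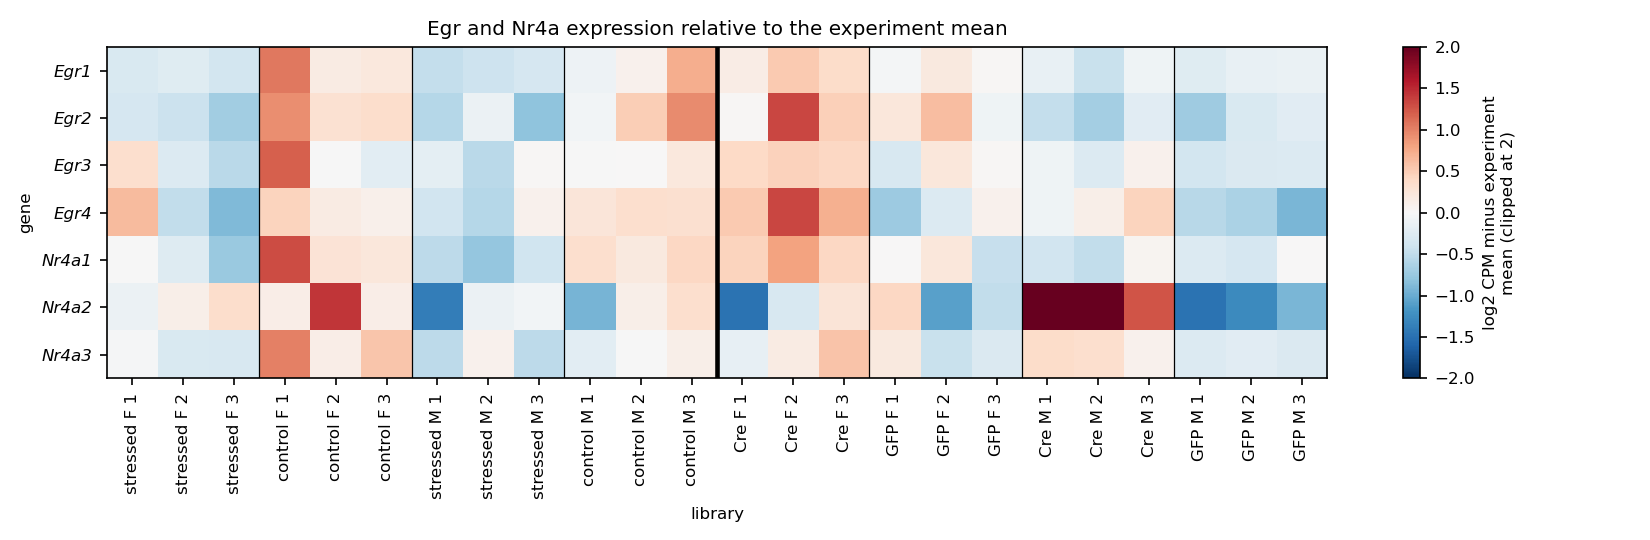
Centred log2 CPM of the 7 members (rows) in the 24 libraries (columns), red above and blue below the mean of the 12 libraries of the experiment, with colours clipped at 2. Control female library 1 is red in most rows, Cre female library 2 is red in Egr2, Egr4 and Nr4a1, and Nr4a2 departs from the other rows in Cre males.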

How the data were processed

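RNA sequencing libraries of nucleus accumbens, each from 4 pooled mice per the labels' protocol, were made with an Illumina mRNA kit. The authors deposited unscaled whole-number counts, with 1 row per Ensembl gene. Per the submitters' processing notes alignment and counting tools were TopHat2 2.0.9, Bowtie2 2.1.0 and HTSeq 0.6.0, with builds NCBIM37 and mm9; the strand setting is not given in the sources used here. Symbols, found for 32919 of 37991 IDs, and exon lengths came from GENCODE M21 (GRCm38), in which no exon of the 7 genes overlaps another gene. Lengths were taken over all annotated exons of a gene. Promoter windows came from RefSeq (GRCm38.p6). Because the builds differ, the only coordinates given are those of the RefSeq windows.

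Each experiment was fitted apart in R 4.3.3 with edgeR 4.0.16 (filterByExpr, TMM, robust quasi-likelihood fit with a mean for each of 4 groups), leaving 15249 wild-type and 17597 floxed genes. P-values were adjusted by Benjamini-Hochberg over all genes tested, and genes were called below 0.05. The experiments differ in genotype, virus and depth at once, so levels between them cannot be told apart from those. Tested on simulated data, the stress comparison in females (15249 genes) recovered 65 of 100 genes changed 2-fold and 96 of 100 changed 4-fold, and the Cre comparison in females (17597 genes) 91 and 97. False calls were 10 of 171 and 9 of 197. The changed genes were drawn above a floor of expression, and variation in tissue content was not simulated. These shares therefore need not hold for the deposited counts. Alternatives were DESeq2 1.42.0, limma-voom (limma 3.58.1), other size factors, no filter, marker scores as covariates, only 2 groups, a replicate block and leaving out each library. Correlations used scipy 1.17.1, by exact enumeration for 9 libraries and 100000 permutations for 12.

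Libraries with the same replicate number deviated together in wild-type females (correlations 0.58, 0.33 and 0.50 between stressed and control deviations), which met the rule for pairing. Wild-type males did not meet that rule, although their correlations of 0.32, 0.22 and 0.09 were all positive. Floxed mice did not meet it either, with values from -0.45 to 0.09. The members and gene lists were chosen with earlier results of these data known. Named genes are the 7 members, Dnmt3a, up to 4 genes of smallest p per pathway list and comparison, the markers, and the 8 genes nearest the members' profile.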

Additional observations from a re-analysis of the deposited data

How the results depend on the processing

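The mean levels of the 7 members in all 8 groups moved by less than 1 SD with median-of-ratios size factors. The count of members called was 1 for Cre in males and 1 for Cre averaged over the sexes, and 0 elsewhere. With DESeq2 it was 1 for Cre in females, 2 in males, 4 averaged, 1 for the sex difference of the Cre effect, 4 for sex in floxed mice and 3 for stress averaged over the sexes. With no filter on low counts it was 1 for stress in females and 3 averaged. With the cortical score it was 0 for Cre in males and 0 averaged, with the choroid plexus score 0 in males, and with only the 2 groups compared 3 in males. Leaving out a library gave 0 to 2 for Cre in males, Cre averaged and sex in floxed mice, and 0 to 1 for the sex difference of the Cre effect. The replicate block changed no call of a member. In wild-type females the replicate numbers met the rule for pairing, although the labels state no pairs. For stress in females the block gave log2 -1.05 for Egr2, -0.96 for Nr4a1 and -0.82 for Egr1. The block was fitted over all wild-type groups, also the males, which did not meet that rule.

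Some fold changes turned sign, and the cause was not tested. With the choroid plexus and the cortical score, Cre in males gave log2 0.14 and 0.12 for Egr1, 0.17 and 0.28 for Egr2, and 0.15 and 0.20 for Nr4a1. The cortical score also turned Nr4a3 to -0.54 in Cre males and -0.10 averaged, and Nr4a2 to 0.29 for sex in floxed mice and 0.28 for stress in females. The choroid plexus score turned Nr4a2 to 0.11 for stress in males. Leaving out a library gave, for Cre in males, -0.12 to 0.05 for Egr1, -0.18 to 0.06 for Egr2 and -0.24 to 0.05 for Nr4a1. It gave -0.01 to 0.69 for Egr2 and -0.57 to 0.42 for Nr4a2 with Cre in females, and -0.03 to 0.31 for Egr2 averaged. For sex in wild-type mice it gave -0.12 to 0.14 for Egr2, -0.23 to 0.19 for Egr4 and -0.05 to 0.36 for Egr3. There the cortical score turned Egr2 to -0.01, and the choroid plexus score and limma-voom turned Egr4 to -0.03 and -0.01. With no filter Egr2 was 0.00.

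Calls over all genes moved more. For Cre in males they were 872, against 1811 with DESeq2, 551 with only the 2 groups, 515 with the replicate block, 36 with the choroid plexus score, 0 with the cortical score and 93 to 1303 without a library. Averaged over the sexes they were 249, against 652, 87 with the block, 161 and 0 with the scores, and 17 to 401. For Cre in females they were 0, against 34 with DESeq2. For the sex difference of the Cre effect they were 2, against 606 with DESeq2, 43 with no filter, 1 with the block, 0 with limma-voom or the cortical score, and 0 to 500 without a library. For sex in floxed mice they were 12, against 89 with DESeq2, 7 with the cortical score and 9 to 92 without a library, and in wild-type mice 6, against 13 with DESeq2 and 14 with no filter. For stress averaged they were 2, against 12 with DESeq2, 12 with no filter, 4 with the block, 1 with the cortical score and 1 to 3 without a library. For stress in females they were 0, against 2 with DESeq2, 5 with no filter and 0 to 1 without a library, and in males 1, against 4, 3 with no filter, 0 to 1 without a library and 0 with limma-voom, either score or only the 2 groups.

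Nr4a2 had 9 to 67 reads per wild-type library, and its standard error was the largest of the 7 members in each wild-type comparison.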

Other observations

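Egr4 and Egr1 did not keep a fixed ratio of reads. Egr4 had 7.77, 10.5 and 7.64 reads per 100 reads of Egr1 in Cre females against 3.73, 4.29 and 6.25 in GFP females. It had 6.25, 8.72 and 8.62 reads per 100 in Cre males against 4.75, 4.26 and 3.45 in GFP males. The Cre libraries lay above the GFP libraries of their sex. In wild-type mice the values were 10.8, 4.71 and 3.91 in stressed females against 3.74, 5.63 and 5.23 in control females, and 6.00, 5.07 and 7.52 in stressed males against 7.13, 6.74 and 4.29 in control males, with overlap in both sexes. This ratio was chosen after its values were seen, and no test is given.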
